A study of Mus musculus with 3 samples.

Results

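The cells described here are chondrocytes of the healing mouse fracture callus that carried much *Col10a1* RNA together with *Ihh*, but little *Mmp13*, and they are called *Ihh*+ cells below. Cells were selected on these 3 measured RNA levels, and a cell was chosen when it held at least 50 UMIs of *Col10a1* per 10000 UMIs of the cell, at least 3 UMIs of *Ihh*, and fewer than 5 UMIs of *Mmp13*. A UMI is a unique molecular identifier, the tag by which each captured RNA molecule is counted once. At day 10 after fracture, 182 of 6587 cells met these limits (2.76%, interval 2.38 to 3.19), and at day 14, 333 of 9680 cells did (3.44%, interval 3.09 to 3.82), which gave 515 of 16267 cells. Intervals here and below are exact 95% intervals and cover counting error only.

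The study profiled single cells of femoral fracture callus from C57BL/6 mice at day 7, day 10, and day 14 after the fracture, without any treatment, with 1 droplet library a day and 30888 deposited cells in all. The callus was freed of muscle and marrow and digested with type I collagenase, and live cells lacking CD45 (leukocytes), CD31 (endothelium), and TER119 (erythroid cells) were sorted. The age of these mice and the number pooled in a library are not given in the sources used here, and all groups shared strain, injury, and sort. Since each day had 1 library, differences between days and between days' animals cannot be told apart, and no comparison below carries a p-value.

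In endochondral repair, chondrocytes of the callus stop dividing, enlarge, and pass through hypertrophy before bone replaces the cartilage. Prehypertrophic and hypertrophic chondrocytes secrete Indian hedgehog (IHH), which acts on neighboring cells through the receptor PTCH1 and, in the growth plate, sustains parathyroid hormone–related protein (PTHrP), whose receptor PTH1R on prehypertrophic cells delays hypertrophy. Collagen X, encoded by *Col10a1*, is the collagen of hypertrophic cartilage, and the collagenase MMP13 belongs to its terminal stage.

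The 3 genes whose RNA chose the cells are encoded at chr10:34389981-34397085 on the plus strand for *Col10a1*, chr1:74945315-74951672 on the minus strand for *Ihh*, and chr9:7272514-7283331 on the plus strand for *Mmp13* (GENCODE M21, GRCm38). Their promoters are shown because the levels of these 3 transcripts define the population. Each line gives, 5′ to 3′ on the gene's strand, the 250 bases before the start site from RefSeq on GRCm38.p6, and capitals mark matches on either strand to 4 motifs. The letters TGTGGT and the variant spelled TGCGGT are cores of sites bound by RUNX factors. The letters TGTTTAC make up a site of forkhead factors, and TATAAA is the TATA box.
Col10a1, chr10:34389731-34389980, plus strand: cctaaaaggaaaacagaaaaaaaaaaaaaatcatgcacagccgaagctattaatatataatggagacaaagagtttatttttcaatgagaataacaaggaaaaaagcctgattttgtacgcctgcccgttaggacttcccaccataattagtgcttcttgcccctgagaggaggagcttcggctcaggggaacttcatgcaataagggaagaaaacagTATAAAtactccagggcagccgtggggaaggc
Ihh, chr1:74951673-74951922, minus strand: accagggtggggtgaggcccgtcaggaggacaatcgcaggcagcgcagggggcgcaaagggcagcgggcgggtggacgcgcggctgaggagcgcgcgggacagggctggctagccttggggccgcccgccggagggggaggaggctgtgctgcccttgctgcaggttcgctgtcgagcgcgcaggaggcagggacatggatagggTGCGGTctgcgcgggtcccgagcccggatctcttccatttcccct
Mmp13, chr9:7272264-7272513, plus strand: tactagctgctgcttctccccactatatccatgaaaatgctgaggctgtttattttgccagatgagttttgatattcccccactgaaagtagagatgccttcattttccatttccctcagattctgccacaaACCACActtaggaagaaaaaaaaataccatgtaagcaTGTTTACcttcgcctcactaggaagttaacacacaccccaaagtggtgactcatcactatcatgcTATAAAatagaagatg
The *Col10a1* window held TATAAA at position -32 from the start, and none of the other motifs. The *Ihh* window, with a GC content of 72% against 41.6% for *Col10a1* and 40.4% for *Mmp13*, held TGCGGT at position -45 and no TATAAA. The *Mmp13* window held the RUNX core TGTGGT at position -118 on the reverse strand, so that its complement is what is printed there. It also held the forkhead site at position -81 and the TATA box at position -16. Among 32851 RefSeq promoters of the same length, from 27025 genes, 14.0% held TGTGGT, 5.10% TGCGGT, 3.17% TGTTTAC, and 12.4% TATAAA. These letter matches are descriptions and no evidence of binding. No entry was found for *Panx3*.

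Comparisons were made within each library against 3 other groups of cells. The *Cnmd*+ chondrocytes held at least 10 UMIs of *Cnmd*, the cartilage glycoprotein chondromodulin, per 10000 UMIs and less than 50 of *Col10a1*, and numbered 3046 at day 10 and 1987 at day 14. *Mmp13*-high cells met the same lower limit of *Col10a1* as *Ihh*+ cells but had 5 or more UMIs of *Mmp13* (361 and 1084 cells). *Ihh*-low cells met that limit too, with fewer than 3 UMIs of *Ihh* and fewer than 5 of *Mmp13* (64 and 148 cells). Levels of *Col10a1* above the limit were not matched between these groups. UMIs were summed over the cells of a group and are given as CPM, the UMIs of a gene per 1000000 UMIs of the group. Of the cells with high *Col10a1*, *Ihh*+ cells were 30.0% of 607 at day 10 (interval 26.4 to 33.8) and 21.3% of 1565 at day 14 (19.3 to 23.4).

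The 4 genes of the rule describe the groups and are no result. *Col10a1* stood at 23849 CPM in day 10 *Ihh*+ cells and 28212 at day 14, against 234 and 312 in *Cnmd*+ chondrocytes. *Ihh* had 692 CPM at day 10 and 855 at day 14, against 40.6 and 67.7. Single *Ihh*+ cells held from 3 to 80 UMIs of *Ihh* at day 10, with a median of 10, and from 3 to 113 at day 14, with a median of 11. *Mmp13* was at 39.1 and 66.3 CPM, against 8137 and 5467 in *Mmp13*-high cells. *Cnmd* was at 1584 and 819.9 CPM. Of the *Ihh*+ cells, 101 of the 182 and 84 of the 333 had 10 or more UMIs of *Cnmd* per 10000, the limit that defined *Cnmd*+ chondrocytes.

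The limits cut through a continuum. At day 10 the lowest *Col10a1* level inside was 50.6 and the highest outside 48.7 per 10000, with 20 chosen cells between 50 and 75 and 39 unchosen cells, past the other limits, between 25 and 50. At day 14 those levels were 50.2 and 49.4, with 32 and 55 cells. Cells with exactly 3 UMIs of *Ihh* numbered 19 and 20 inside, and cells with exactly 2 numbered 17 and 43 outside. Exactly 4 UMIs of *Mmp13* were seen in 11 and 30 chosen cells, and exactly 5 in 4 and 24 cells outside. Because the *Ihh* and *Mmp13* limits are in UMIs, they depend on depth. The median cell held 20696 UMIs at day 10 and 18675 at day 14 in *Ihh*+ cells, 18936 and 20512 in *Cnmd*+ chondrocytes, 17807 and 16899 in *Mmp13*-high cells, and 13444 and 12687.5 in *Ihh*-low cells.

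Markers of other cell types were low in the sorted *Ihh*+ cells. The 6 endothelial markers summed to 2.69 CPM at day 10 and 2.81 at day 14, with 4 of them at 0 on each day, *Cdh5* included. The 7 myeloid markers summed to 2.42 CPM with 5 at 0 at day 10 and to 25.9 CPM with 1 at 0 at day 14, where the neutrophil genes *S100a8* and *S100a9* made up 9.05 and 12.6 CPM. In *Mmp13*-high cells of day 14 the same pair stood at 112 and 168 CPM, and in pericyte-like cells (at least 10 UMIs of the pericyte gene *Rgs5* and less than 50 of *Col10a1* per 10000) at 10.6 and 11.4. The 6 erythroid markers summed to 1.08 and 0.624 CPM, the 5 pericyte markers to 16.7 and 29.8, and the 6 osteoclast markers to 49.3 and 47.3, of which *Ctsk* gave 44.2 and 42.7 while 3 were at 0. The 4 tenocyte markers summed to 26.9 and 35.6 CPM with none at 0, and the 5 markers of adipogenic stroma to 4.04 and 4.06. Libraries shared 29, 42, and 35 cell barcodes pairwise, and no barcode was shared between day 10 and day 14 *Ihh*+ cells. The day 7 library stood apart: only 447 of its 9103 cells lay within the limits, since 6570 carried *Ptprc* RNA, and it was left out.

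*Ihh*+ cells carried the highest levels of *Pth1r*, the PTHrP receptor, among the 4 groups. *Pth1r* had 2391 CPM (2342 to 2442) at day 10 and 2222 (2186 to 2259) at day 14 in *Ihh*+ cells. It had 845 (838 to 853) and 880.0 (871 to 889) in *Cnmd*+ chondrocytes, 1221 and 1143 in *Mmp13*-high cells, and 2256 and 1478 in *Ihh*-low cells. Its log2 ratio over *Cnmd*+ chondrocytes was 1.50 (1.47 to 1.53) and 1.34 (1.31 to 1.36), and over *Mmp13*-high cells 0.97 and 0.96. Per cell, the middle 50% of *Ihh*+ cells lay between 17.2 and 30.4 UMIs of *Pth1r* per 10000 at day 10, above the middle 50% of *Cnmd*+ chondrocytes at 2.02 to 11.6, whereas at day 14 the ranges, 13.2 to 29.8 and 1.40 to 12.2, nearly met.

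*Panx3*, which encodes the channel protein pannexin 3 of maturing chondrocytes and osteoblasts, had 524 CPM (501 to 548) and 448 (432 to 465) in *Ihh*+ cells. It had 265 and 268 in *Cnmd*+ chondrocytes, a log2 ratio of 0.98 (0.91 to 1.05) and 0.74 (0.68 to 0.80) that did not reach 2-fold, and 248 and 211 in *Mmp13*-high cells, a log2 ratio of 1.08 on both days. *Pth1r* and *Panx3* thus stood higher in *Ihh*+ cells than in *Cnmd*+ chondrocytes and *Mmp13*-high cells. Both lay within 2-fold of *Ihh*-low cells on both days, with a median log2 ratio of 0.09 and 0.53. *Ihh* itself did not stand apart from *Mmp13*-high cells, which had no *Ihh* limit. They held 843 and 784 CPM of it, a log2 ratio of -0.28 and 0.13. Of them, 68.4% and 68.7% had 3 or more UMIs of *Ihh*. The rule fixed a higher *Ihh* level than in *Cnmd*+ chondrocytes, while "rich in *Ihh*" did not set the cells apart from *Mmp13*-high cells, and "early" describes low *Mmp13* RNA, since single cells carry no measured order in time.

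**Figure D1:**
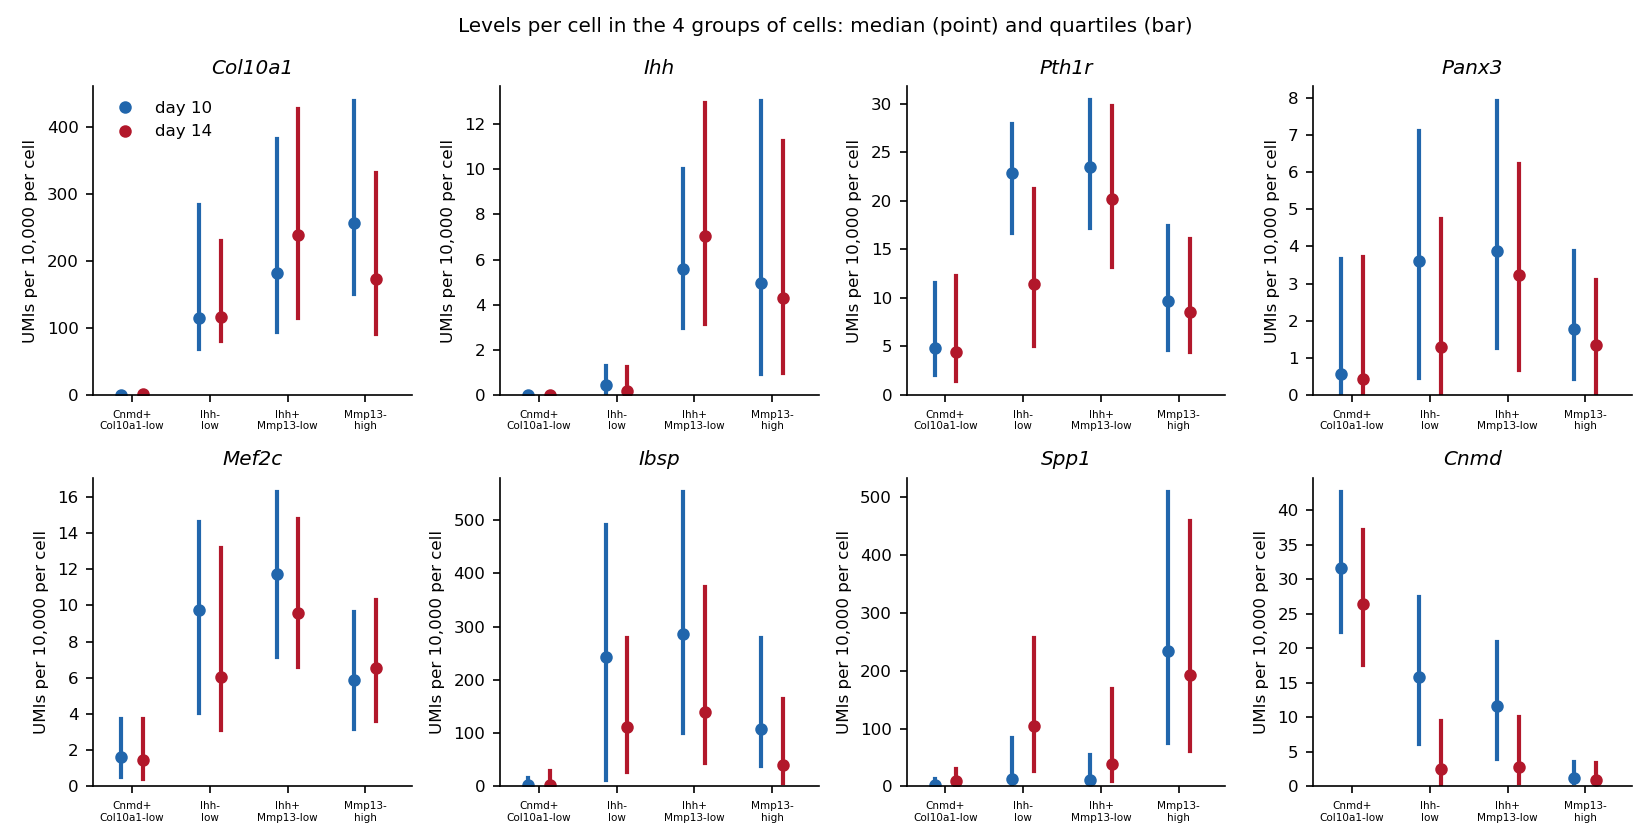
Levels of 8 genes per cell, in UMIs per 10000 UMIs of the cell (vertical axes), in *Cnmd*+, *Ihh*-low, *Ihh*+, and *Mmp13*-high cells (horizontal axes), at day 10 (blue) and day 14 (red); points are medians over cells and bars span the quartiles. *Pth1r* and *Mef2c* have their highest medians in *Ihh*+ cells on both days, 23.5 and 20.2 for *Pth1r*, while *Spp1* is highest in *Mmp13*-high cells.

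Detection was compared at a common depth because free RNA in droplets gives UMIs to cells that do not make a gene. Pericyte-like cells served as a control, although they are whole cells and can make some of these transcripts themselves. After each cell was thinned to 5000 UMIs, which left out 5 and 13 *Ihh*+ cells, 84 and 45 *Cnmd*+ chondrocytes, and 4 and 24 pericyte-like cells (here the control for free RNA), *Panx3* was detected in 73.4% (66.3 to 79.8) and 67.8% (62.4 to 72.9) of *Ihh*+ cells. The share was 40.9% and 39.6% in *Cnmd*+ chondrocytes and 2.78% and 2.66% in pericyte-like cells, whose median depth was 12521.5 and 9130.5 UMIs. Unthinned shares were 86.3% and 83.5%, 55.8% and 53.0%, and 5.26% and 7.08%. *Pth1r* was detected in 99.4% and 98.8% of thinned *Ihh*+ cells (100% and 99.7% unthinned), in 80.4% and 75.3% of thinned *Cnmd*+ chondrocytes, and in 36.1% and 33.5% of thinned pericyte-like cells.

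Across all genes, comparison with *Cnmd*+ chondrocytes used those averaging at least 10 CPM in the 2 groups. At day 10, 377 of 6927 genes were at least 2-fold higher in *Ihh*+ cells (5.44%) and 469 at least 2-fold lower (6.77%), and at day 14, 318 of 6836 were higher (4.65%) and 510 lower (7.46%). Among 6606 genes comparable on both days, 223 were past 2-fold higher on both (3.38%) and 326 lower (4.93%). The list counts below are to be read beside these shares of all genes. The 223 were 63.9% of the 349 of these genes that were higher at day 10 and 76.9% of the 290 that were higher at day 14. Since *Col10a1* and *Cnmd* levels separated these groups, the counts describe them and test nothing. The median log2 ratio of all genes was -0.08 at day 10 and -0.11 at day 14.

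Hedgehog pathway genes differed in both directions, with *Disp1* higher in *Ihh*+ cells than in *Cnmd*+ chondrocytes and *Ptch1* lower. *Disp1*, which encodes the transporter that releases lipid-modified hedgehog from the producing cell, had 19.1 CPM (14.9 to 24.1) and 23.9 (20.2 to 28.0) in *Ihh*+ cells, against 6.61 and 7.26 in *Cnmd*+ chondrocytes and 9.03 and 9.77 in *Mmp13*-high cells. Its log2 ratio was 1.53 and 1.72 over the first and 1.08 and 1.29 over the second. *Ptch1*, the hedgehog receptor and itself a target of the pathway, had 62.5 CPM (54.7 to 71.1) and 56.2 (50.5 to 62.3), against 177 (173 to 180) and 228 (223 to 233) in *Cnmd*+ chondrocytes, a log2 ratio of -1.50 and -2.02. In *Mmp13*-high cells *Ptch1* was as low, at 63.2 and 65.5 CPM. *Gli1*, the other common target, had 1.08 and 0.624 CPM against 9.77 and 10.1 in *Cnmd*+ chondrocytes, and averaged under 10 CPM on both days.

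*Ihh*+ cells also differed from *Cnmd*+ chondrocytes in SCUBE genes, whose secreted products bind hedgehog or BMP-family proteins. *Scube3* had 75.4 and 67.7 CPM against 4.79 and 4.53, a log2 ratio of 3.98 and 3.90. *Scube2* instead had 1.35 and 0.468 against 21.7 and 14.8, and averaged under 10 CPM at day 14. *Pthlh*, which encodes PTHrP, was at most 1 CPM in each group, too few UMIs to compare. Of the 21 listed hedgehog and PTHrP genes other than *Ihh*, 7 had enough RNA to compare on both days. *Pth1r* and *Disp1* were past 2-fold higher, *Ptch1* and the coreceptor *Cdon* (9.70 and 7.64 CPM against 22.3 and 21.7) lower, and *Smo*, *Gli3*, and *Sik3* within 2-fold.

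Several transcription factors of hypertrophy stood higher in *Ihh*+ cells than in *Cnmd*+ chondrocytes, and some of them also higher than in *Mmp13*-high cells. *Mef2c*, which drives *Col10a1* and hypertrophy, had 1207 CPM (1172 to 1243) and 1047 (1022 to 1072), against 287 and 270 in *Cnmd*+ chondrocytes (log2 2.07 and 1.95) and 705 and 715 in *Mmp13*-high cells (0.77 and 0.55). *Foxa3*, a forkhead factor of hypertrophic cartilage, had 78.1 and 57.4 CPM, against 32.7 and 25.1 (log2 1.25 and 1.19) and, in *Mmp13*-high cells, 19.0 and 20.1 (2.04 and 1.52). Its relative *Foxa2* had only 16.2 and 24.5 CPM, against 2.47 and 4.45 and, in *Mmp13*-high cells, 6.65 and 10.4, and averaged under 10 CPM at day 10. These 3 genes thus stood higher in *Ihh*+ cells than in *Cnmd*+ chondrocytes and *Mmp13*-high cells. *Runx2*, the osteoblast and hypertrophy factor, instead lay between them, with 147 and 139 CPM, against 80.4 and 61.1 in *Cnmd*+ chondrocytes and 267 and 228 in *Mmp13*-high cells. *Sox9*, the chondrocyte master factor, was at 765 and 535 CPM against 693 and 471, while *Mmp13*-high cells had 403 and 342. Over the whole list of 24 maturation factors, 17 were comparable with *Cnmd*+ chondrocytes on both days. *Mef2c* and *Foxa3* were past 2-fold higher, *Sox5* and *Zfp521* lower, and the list median was -0.05 and 0.04.

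Of 14 mineralization genes compared with *Cnmd*+ chondrocytes, 5 were past 2-fold higher on both days, 1 lower, and 7 within 2-fold. The shares over all genes were 3.38% higher and 4.93% lower. The list had a median log2 ratio of 0.60 and 0.67. *Ibsp*, which encodes bone sialoprotein, a nucleator of hydroxyapatite, had 34841 CPM and 29595 in *Ihh*+ cells, against 6289 and 7276 in *Cnmd*+ chondrocytes and 25831 and 15580 in *Mmp13*-high cells. *Alpl*, tissue-nonspecific alkaline phosphatase, had 1535 and 1305 CPM against 483 and 571, and 745 and 690 in *Mmp13*-high cells. *Phex*, a phosphate-regulating endopeptidase, had 94.0 and 110.3 CPM against 7.47 and 13.1. *Dmp1*, which encodes a matrix protein of osteocytes, had 53.9 and 24.0 CPM against 1.63 and 3.83, but a few cells carried it. A UMI of *Dmp1* was seen in 7.14% and 6.01% of *Ihh*+ cells, fewer than the 11.8% and 8.02% of pericyte-like cells, and after thinning to 5000 UMIs a cell in 3.39% and 4.38% against 2.78% and 3.19%. At day 10 its level was 139 CPM in the 61 *Ihh*+ cells lowest in *Col10a1* and 6.71 and 6.66 CPM in the 61 and 60 cells above them. *Spp1*, osteopontin, had 4480 and 12814 CPM against 1574 and 3606, and was far higher in *Mmp13*-high cells, at 32354 and 36408. *Mgp*, an inhibitor of mineralization, was the lower gene: 3417 and 7473 CPM in *Ihh*+ cells, against 22006 and 20175 in *Cnmd*+ chondrocytes and 21174 and 26686 in *Mmp13*-high cells. *Ihh*+ cells therefore held less *Mgp* than both groups, a log2 ratio of -2.69 and -1.43 against the first and -2.63 and -1.84 against the second. The overlapping list of osteoblast markers had 3 of 7 genes past 2-fold higher than in *Cnmd*+ chondrocytes on both days (*Ibsp*, *Phex*, and *Dmp1*, the last carried by a few cells). *Col1a1*, the main collagen of bone, was the 1 lower gene, at 3946 and 2565 CPM against 7905 and 6344, and the osteoblast factor *Sp7* was close, at 50.9 and 52.7 against 52.8 and 47.9.

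**Figure D2:**
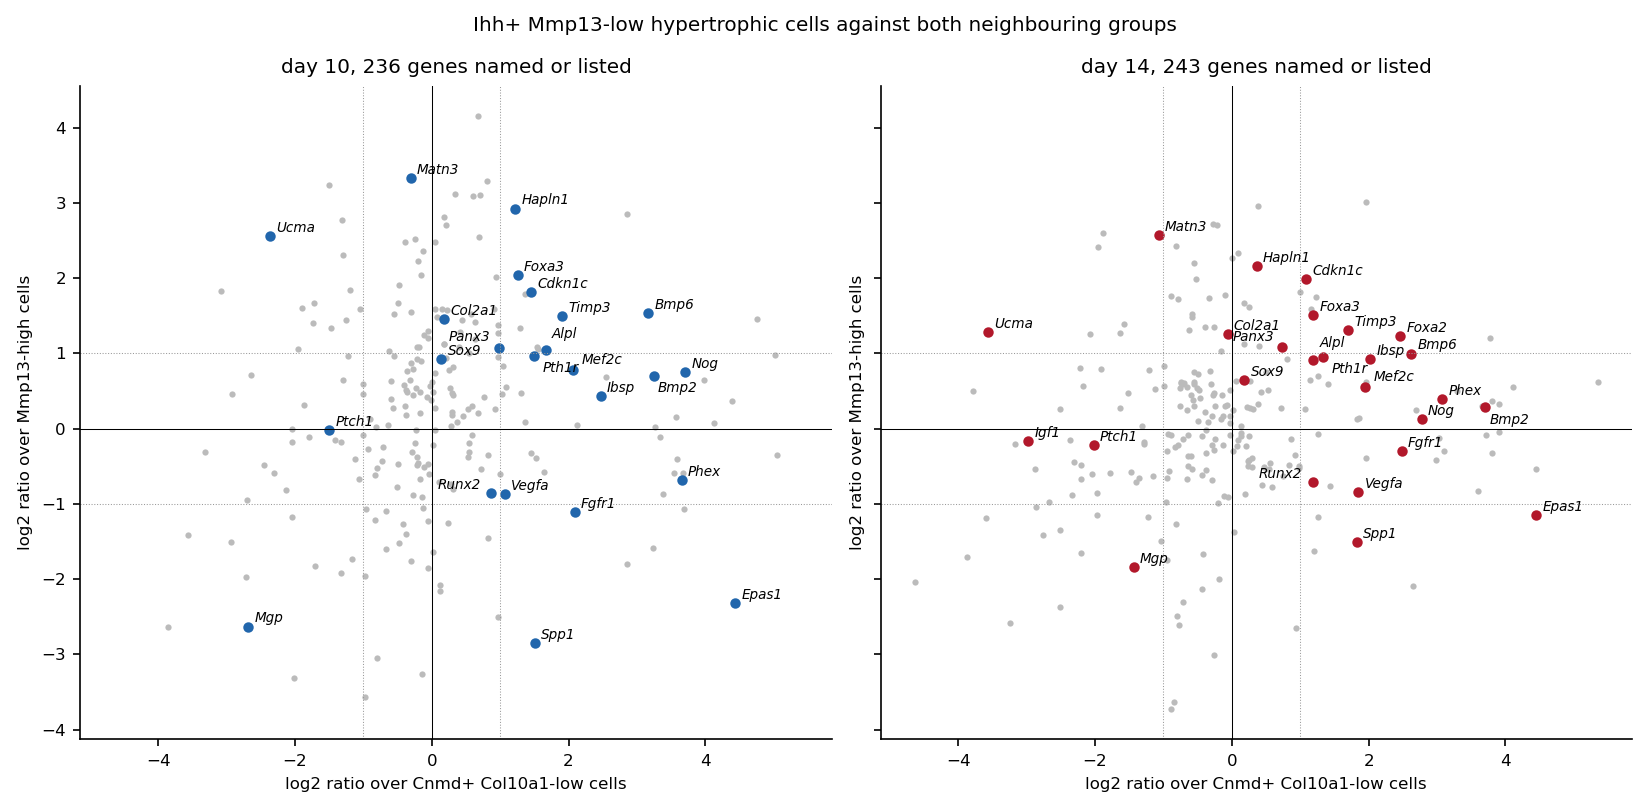
Log2 ratio of CPM in *Ihh*+ cells over *Cnmd*+ chondrocytes (horizontal axis) and over *Mmp13*-high cells (vertical axis), with 1 point per listed or named gene comparable in both, 236 genes at day 10 (left) and 243 at day 14 (right); dotted lines mark 2-fold. *Foxa3*, *Bmp6*, *Timp3*, and *Cdkn1c* lie to the upper right on both days, *Mgp* to the lower left, and *Epas1*, *Spp1*, *Vegfa*, and *Fgfr1* to the lower right.

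Several BMP ligands and an antagonist stood higher in *Ihh*+ cells than in *Cnmd*+ chondrocytes. *Bmp2* had 303 CPM (286 to 321) and 247 (235 to 260) in *Ihh*+ cells against 31.9 and 18.9 in *Cnmd*+ chondrocytes, a log2 ratio of 3.25 and 3.71, and *Mmp13*-high cells had 186 and 203. *Bmp6* had 97.5 and 65.2 CPM against 10.8 and 10.6, and 33.7 and 32.6 in *Mmp13*-high cells. *Bmp8a* had 25.3 and 32.3 against 2.68 and 2.66, but more in *Mmp13*-high cells, at 76.2 and 57.3. *Nog*, which encodes the BMP antagonist noggin, had 103 and 78.5 CPM against 7.85 and 11.4, and 61.1 and 72.0 in *Mmp13*-high cells. These were the 4 genes of the 16 comparable BMP pathway genes past 2-fold higher on both days, against 3.38% of all genes. None was lower, against 4.93% of all genes, although the list median was -0.22 and -0.64. Receptors and SMADs, such as *Bmpr1a* at 26.9 and 31.2 CPM against 51.2 and 57.7, were not among the 4 higher genes.

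Of 4 comparable FGF pathway genes, 1 was past 2-fold higher on both days, 1 lower, and 2 within 2-fold. Here and for the next 2 lists, the shares over all genes were 3.38% higher and 4.93% lower. *Fgfr1* had 279 and 366 CPM against 65.6 on both days in *Cnmd*+ chondrocytes, and *Fgfr2* 15.4 and 12.5 against 67.6 and 57.3, whereas *Fgfr3*, the receptor of proliferating and prehypertrophic chondrocytes, was close, at 183 and 136 against 200.1 and 171. Of 10 WNT pathway genes, the ligand *Wnt5b* and the antagonist *Frzb* were past 2-fold higher, at 134 and 103 CPM against 46.0 and 43.0 and at 588 and 713 against 229 and 196, and 3 were lower. None of the 13 comparable TGF-beta and IGF genes was past 2-fold higher and 5 were lower on both days. *Igf1* had 9.97 and 38.2 CPM in *Ihh*+ cells, against 225 and 300.4 in *Cnmd*+ chondrocytes, and 9.98 and 42.8 in *Mmp13*-high cells.

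Of 18 cell cycle genes, 5 had enough RNA to compare with *Cnmd*+ chondrocytes on both days, of which *Cdkn1c* was past 2-fold higher and none lower, with a median log2 ratio of 0.02 and -0.45. The proliferation marker *Mki67* averaged under 10 CPM and had 0.539 and 1.09 CPM against 12.5 and 8.03 in *Cnmd*+ chondrocytes, and after thinning a UMI of it was seen in 0.565% and 0.625% of *Ihh*+ cells, 3.24% and 2.68% of *Cnmd*+ chondrocytes, and 11.1% and 7.98% of pericyte-like cells. Unthinned, these shares were 1.10% and 2.10%, 5.61% and 4.73%, and 17.1% and 13.2%. *Cdkn1c*, which encodes the inhibitor p57, had 936 and 691 CPM against 342 and 325, and 265 and 174 in *Mmp13*-high cells, so it was past 2-fold higher than in both groups on both days. *Cdkn1a*, which encodes p21, had 901 and 606 CPM against 330.0 and 308, and was higher still in *Mmp13*-high cells, at 1127 and 873.

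Under the rule for named genes, the 15 genes furthest above *Cnmd*+ chondrocytes on both days were led by *Cds1*, which encodes a CDP-diacylglycerol synthase. It had 88.9 and 73.2 CPM against 2.73 and 1.79, a log2 ratio of 5.02 (4.75 to 5.31) and 5.35 (4.99 to 5.73). *Wnk4*, a kinase of ion transport, had 146 and 131 CPM against 7.00 and 7.59. *Irx5*, a homeobox factor, had 249 and 233 against 14.2 and 15.6, and *Aldh1a3*, a retinaldehyde dehydrogenase, 401 and 284 against 14.8 and 20.6. *Loxl4*, a lysyl oxidase relative, had 390.4 and 421 against 32.8 and 30.0, and *Hpgd*, which degrades prostaglandins, 715 and 737 against 61.4 and 92.6. The others were *Scube3*, *Pank1*, *Ddit4l*, *Jam2*, *Fam43a*, *Bmp2*, *Gm4258*, *Phex*, and *Ptges3l*. Of all 15, *Aldh1a3* alone was past 2-fold higher than in *Mmp13*-high cells on both days, at 146 and 123 CPM there. *Irx5* had 236 and 240.3 in *Mmp13*-high cells, and *Hpgd* 1077 and 987. These genes were therefore shared with *Mmp13*-high cells for the most part.

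The 10 genes furthest below were *Col14a1*, *Itgbl1*, *Hp*, *Slc40a1*, *Ptx3*, *Ogn*, *C1qtnf3*, *Igf1*, *Abi3bp*, and *Aspn*. *Col14a1*, a fibril-associated collagen, had 4.31 and 1.72 CPM against 108 and 56.4, and *Ogn*, osteoglycin, 62.0 and 40.1 against 618 and 483. The list of 5 *Postn* progenitor markers (*Postn*, *Aspn*, *Ogn*, *Ptn*, and *Thbs2*) was past 2-fold lower throughout on both days. Most of its genes were named by the study from these samples, so the list is not independent evidence. *Postn* had 99.4 and 73.6 CPM in *Ihh*+ cells, 491 and 498 in *Cnmd*+ chondrocytes, and 150.0 and 196 in *Mmp13*-high cells. Among the 10 of the 15 higher genes that had a RefSeq promoter, none held TGTGGT, *Cds1* held the variant TGCGGT, and *Pank1* held the forkhead site and the TATA box. No entries were found for *Irx5*, *Aldh1a3*, *Jam2*, *Bmp2*, and *Ptges3l*. Of the 10 lower genes, 6 had a promoter. *Ogn* held TGTGGT, *C1qtnf3* held TGCGGT, and *Ogn*, *C1qtnf3*, and *Aspn* held TATAAA, while none held the forkhead site. Over all promoters the shares were 14.0% for TGTGGT, 5.10% for TGCGGT, 3.17% for TGTTTAC, and 12.4% for TATAAA. Counts this small were not tested against those shares.

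**Figure D3:**
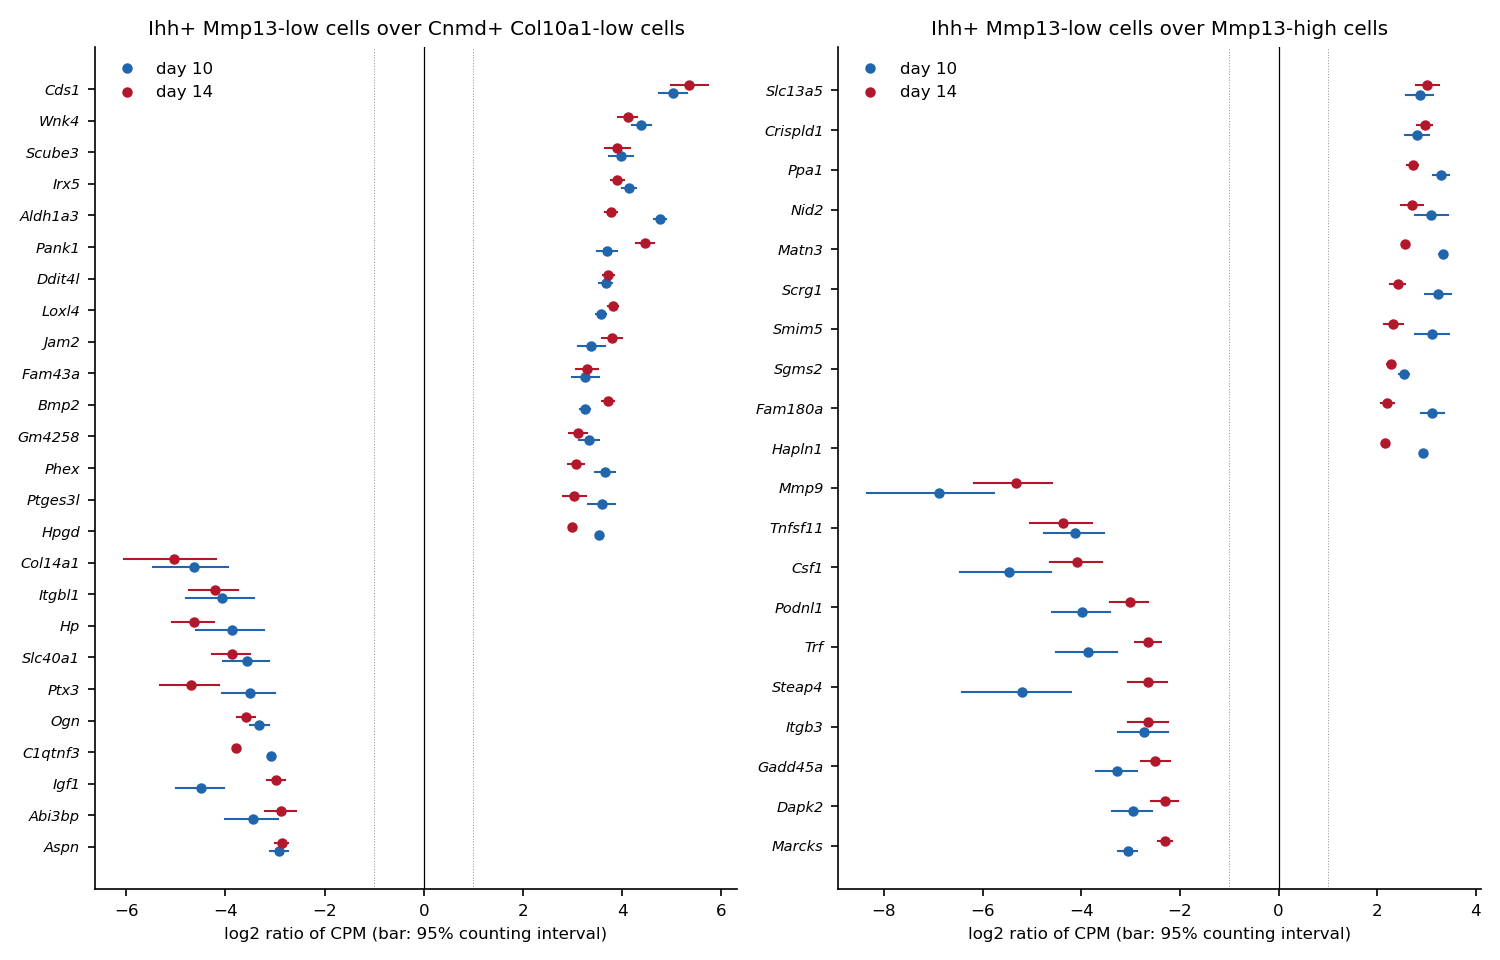
Log2 ratios of CPM (horizontal axes) for the genes furthest above and below in *Ihh*+ cells over *Cnmd*+ chondrocytes (left) and over *Mmp13*-high cells (right), at day 10 (blue) and day 14 (red), with bars for 95% counting intervals; dotted lines mark 2-fold. *Cds1* is highest on the left at 5.02 and 5.35, and *Mmp9* lowest on the right at -6.89 and -5.33.

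Compared with *Mmp13*-high cells, *Ihh*+ cells held more RNA of most cartilage matrix genes. At day 10, 395 of 7081 genes were at least 2-fold higher in *Ihh*+ cells (5.58%) and 560 lower (7.91%), and at day 14, 178 of 6864 were higher (2.59%) and 269 lower (3.92%). The median log2 ratio was -0.18 and -0.12. Among 6669 genes comparable on both days, 155 were higher on both (2.32%) and 217 lower (3.25%). The 155 were 42.3% of the 366 higher at day 10 and 92.8% of the 167 higher at day 14. Of 20 comparable cartilage matrix genes, 16 were past 2-fold higher on both days and none lower, with a median of 1.63 and 1.35. *Col2a1*, the main cartilage collagen, had 48801 and 34517 CPM in *Ihh*+ cells, 17816 and 14443 in *Mmp13*-high cells, and 43159 and 36057 in *Cnmd*+ chondrocytes. *Matn3*, matrilin 3, had 1974 and 1130.0 CPM against 195 and 190.0, and *Hapln1*, the link protein of aggrecan, 6979 and 3680.5 against 918 and 825.

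The same matrix list set against *Cnmd*+ chondrocytes gave a median log2 ratio of -0.05 and -0.39. *Snorc*, a proteoglycan of chondrocytes, was past 2-fold higher (9014 and 10660.4 CPM against 4365 and 4809.8). Lower were 6 of 21 genes, against 4.93% of all genes. *Ucma*, the unique cartilage matrix-associated protein, was among them, at 281 and 119 CPM against 1440.0 and 1418, and it was lower still in *Mmp13*-high cells, at 47.7 and 49.0. *Slc13a5*, a citrate transporter, led the genes above *Mmp13*-high cells, at 162 and 94.5 CPM against 22.3 and 11.7, and stood above *Cnmd*+ chondrocytes too, at 22.4 and 24.2. *Crispld1* followed, at 202 and 212 against 28.8 and 27.2. *Timp3*, an inhibitor of metalloproteinases, had 528 and 375 CPM against 187 and 151 in *Mmp13*-high cells and 141 and 115 in *Cnmd*+ chondrocytes. *Mmp14*, a membrane-bound metalloproteinase, was lower in *Ihh*+ cells than in both groups, at 50.1 and 43.4 CPM against 178 and 136 in *Mmp13*-high cells and 164 and 199 in *Cnmd*+ chondrocytes.

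Of 5 vascular and osteoclast factors comparable with *Mmp13*-high cells on both days, *Tnfsf11* and *Csf1* were past 2-fold lower in *Ihh*+ cells and 3 were within 2-fold. Of 8 comparable matrix proteases and inhibitors, 4 were lower on both days, *Mmp9* among them, 1 was higher, and 3 were within 2-fold. For both lists, the shares over all genes were 2.32% higher and 3.25% lower. *Mmp9*, gelatinase B, had 1.62 and 2.34 CPM against 191 and 93.9. *Tnfsf11*, which encodes the osteoclast differentiation factor RANKL, had 6.74 and 3.59 against 117 and 74.0, and *Csf1*, which encodes the macrophage factor M-CSF, 2.96 and 4.99 against 130.0 and 84.7. *Vegfa*, the vascular growth factor, was within 2-fold, at 239.5 and 202 CPM in *Ihh*+ cells, 438 and 362 in *Mmp13*-high cells, and 114 and 55.9 in *Cnmd*+ chondrocytes. *Epas1*, which encodes the hypoxia-inducible factor HIF-2alpha, also lay between, with 22.9 and 51.0 CPM, against 1.06 and 2.34 in *Cnmd*+ chondrocytes and 115 and 113 in *Mmp13*-high cells. Of 16 glycosaminoglycan synthesis genes, 5 were past 2-fold higher and 1 lower on both days, with a median of 1.00 and 0.53. The shares over all genes were 2.32% higher and 3.25% lower. Of 18 glycolysis and hypoxia genes, 13 were higher at day 10 and 1 at day 14, against 5.58% and 2.59% of all genes. On both days 1 was higher and 1 lower, with a median of 1.24 at day 10 and 0.47 at day 14. None of 19 endoplasmic reticulum folding genes was past 2-fold on both days, with a median of 0.51 and 0.47.

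*Ihh*-low cells shared the lower limit of *Col10a1* and the limit on *Mmp13*. At day 10, 110 of 6655 genes were at least 2-fold higher in *Ihh*+ cells (1.65%) and 111 lower (1.67%), and at day 14, 29 of 6767 were higher (0.429%) and 170 lower (2.51%). Past 2-fold on both days were 6 genes higher (0.0953%) and 23 lower (0.365%) among 6298 compared. *Il17b*, an interleukin 17 family cytokine, was among the higher, at 62.2 and 62.1 CPM against 28.8 and 18.2. *Fxyd2*, a regulator of the sodium pump, was lower, at 12.9 and 22.6 against 68.5 and 96.5. *Inhba*, an activin subunit, was past 2-fold lower too, at 160 and 65.5 CPM against 360.4 and 158. *Fn1*, fibronectin, was lower but within 2-fold on both days, at 6878 and 5711 CPM against 13258 and 10674. *Pth1r* was close at day 10, with a log2 ratio of 0.08 (0.01 to 0.16), and apart at day 14, with 0.59 (0.53 to 0.65). On both days, 16 of 17 comparable maturation factors, 17 of 21 cartilage matrix genes, and 10 of 14 mineralization genes lay within 2-fold. So did 13 of 15 BMP pathway genes and all 5 cell cycle genes. No gene of these lists was past 2-fold higher on both days. These counts are to be read beside all genes, of which 1.65% were higher and 1.67% lower at day 10. At day 14 those shares were 0.429% and 2.51%, so most genes lay within 2-fold. Past 2-fold lower at day 14 were 4 mineralization genes and all 5 *Postn* progenitor markers, the latter with a median log2 ratio of -1.68. *Ihh*-low cells were shallower, and 19 and 48 of them held fewer than 5000 UMIs, so that a limit of 3 UMIs of *Ihh* was harder for them to reach. With cells thinned to 5000 UMIs and shallower ones left out, 523 genes were higher and 452 lower at day 10 (7.80% and 6.74%). At day 14, 218 were higher and 449 lower (3.18% and 6.55%). Thinning leaves fewer UMIs, so genes near 10 CPM rest on very few of them. These counts therefore do not show larger differences at equal depth, and the part of sampling noise was not tested. Unthinned, among genes averaging at least 50 CPM, 8 were higher and 9 lower at day 10, and 3 and 35 at day 14.

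Between the days, 45 of 6649 genes were at least 2-fold higher in *Ihh*+ cells of day 14 than of day 10 (0.677%) and 103 lower (1.55%), with a median log2 ratio of -0.07. After thinning to 5000 UMIs a cell, which leaves fewer UMIs and so more sampling noise, 163 were higher and 210 lower (2.44% and 3.14%). Unthinned, among genes averaging at least 50 CPM, 13 were higher and 34 lower. *Dcn*, decorin, had 872 CPM at day 10 and 2446 at day 14, a log2 ratio of 1.49 that was 0.21 in *Cnmd*+ chondrocytes and 1.16 in *Mmp13*-high cells. *Spp1* had a log2 ratio of 1.52, with 1.20 in *Cnmd*+ chondrocytes and 0.17 in *Mmp13*-high cells. In pericyte-like cells *Spp1* had 427 and 1981 CPM and was detected, after thinning, in 43.1% and 79.8%. Free RNA and RNA made by those cells cannot be told apart there. The part of free RNA in the difference was not tested. *Bglap*, osteocalcin, behaved alike, with 21.0 and 58.7 CPM in *Ihh*+ cells and 7.94 and 94.7 in pericyte-like cells.

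*Znhit6* and *Fut8* stood higher at day 14 in *Ihh*+ cells, with 22.4 and 55.2 CPM and 22.4 and 53.5 CPM, while their log2 ratios were between -0.06 and 0.17 in both other groups. Lower at day 14 were *Il11*, an interleukin 6 family cytokine, at 57.1 and 7.80 CPM, the growth factor *Hbegf* at 73.0 and 18.1, the hexokinase *Hk2* at 74.9 and 18.7, and the immediate early gene *Ier3* at 274 and 92.7. These 4 genes were lower at day 14 in *Cnmd*+ chondrocytes and *Mmp13*-high cells too, with *Il11* at -2.87 in *Ihh*+ cells, -3.23, and -1.66 on the log2 scale. *Car12*, a carbonic anhydrase, had 70.9 and 23.4 CPM, a log2 ratio of -1.60, and -0.10 and 0.13 in the other groups. Whether the days differ in these genes beyond the spread between animals was not testable with 1 library per day. *Pth1r*, *Panx3*, and *Ihh* had log2 ratios between days of -0.11, -0.23, and 0.30.

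**Figure D4:**
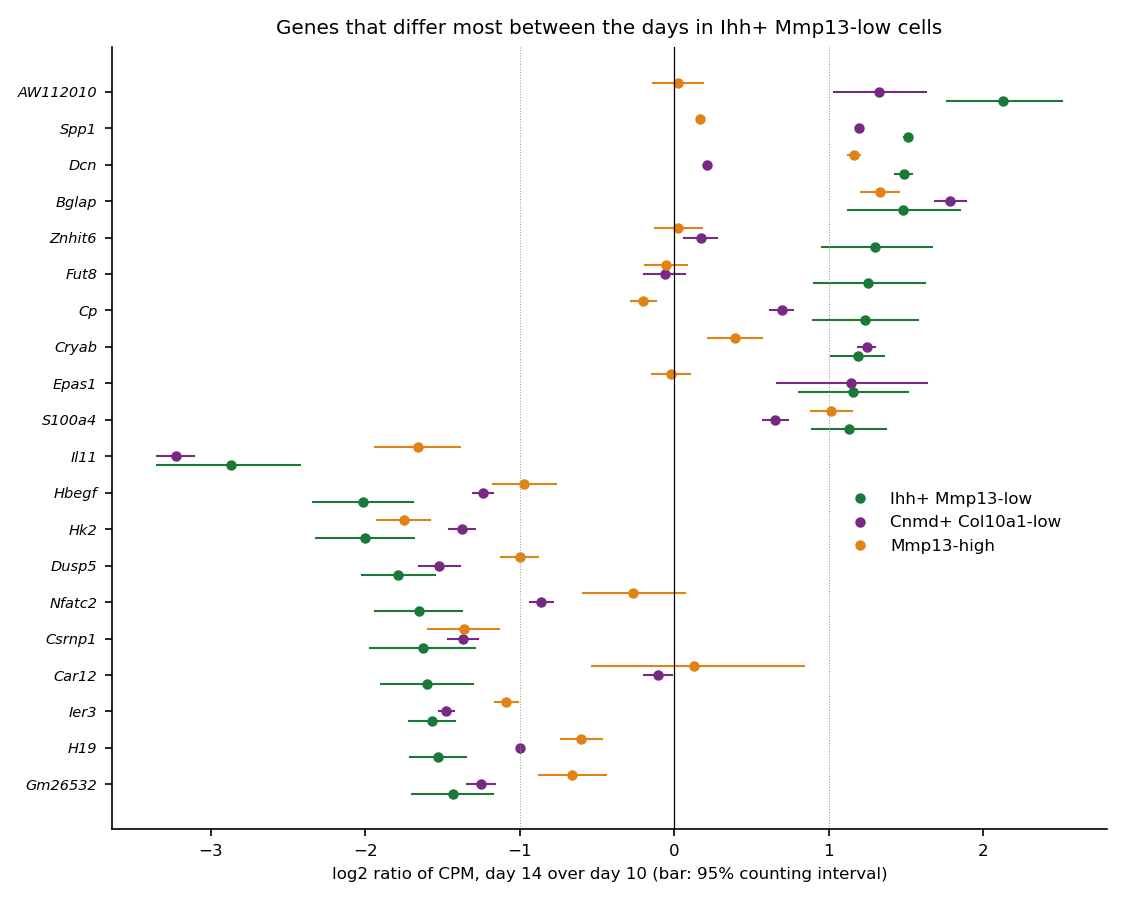
Log2 ratio of CPM at day 14 over day 10 (horizontal axis) for the 10 genes furthest above and the 10 furthest below in *Ihh*+ cells (green), with the same ratio in *Cnmd*+ chondrocytes (purple) and *Mmp13*-high cells (orange) and bars for 95% counting intervals; dotted lines mark 2-fold. *Il11* is low in all 3 groups, whereas *Car12* is at -1.60 in *Ihh*+ cells and at -0.10 and 0.13 in the others.

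*Ihh*+ cells varied among themselves along *Col10a1*. The cells of each day were split into 3 parts by *Col10a1* level, of 61, 61, and 60 cells at day 10 and 111 each at day 14. From the low through the middle to the high part, *Ihh* had 479, 744, and 893 CPM at day 10, and 614, 838, and 1176 at day 14. *Col10a1* and *Ihh* both chose the cells, so this run of *Ihh* is a description and no result. *Cnmd* ran the other way, with 1856, 1679.7, and 1120 at day 10 and 1243, 777, and 337 at day 14. *Pth1r* stayed level, at 2435, 2348, and 2391 CPM at day 10 and 2320.5, 2018, and 2329.6 at day 14.

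Along the same parts *Vegfa* had 153, 246, and 340 CPM at day 10 and 98.9, 239.5, and 287 at day 14, and *Runx2* had 121, 133, and 198 and then 111, 132, and 184. *Epas1* had 6.8, 17.9, and 49.5 at day 10 and 21.9, 52.2, and 86.3 at day 14. *Ptch1* ran down, from 79.6 to 63.4 and 40.0 and from 72.0 to 51.7 and 41.3. Not every gene that was higher in *Mmp13*-high cells ran this way. *Mmp14* had 45.5, 60.4, and 42.8 CPM along the parts at day 10 and 50.9, 43.3, and 33.9 at day 14. *Cdkn1a* had 965, 913, and 806 CPM at day 10. Its Spearman's rho with *Col10a1* across single cells was -0.14 at day 10 but 0.07 at day 14. Median depth differed between the parts, at 23041, 22025, and 17097.5 UMIs at day 10 and 20533, 18979, and 17202 at day 14, and its part in these differences was not tested.

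Across single cells, Spearman's rho with *Col10a1* was 0.52 at day 10 (182 cells) and 0.38 at day 14 (333 cells) for *Loxl4*, 0.49 and 0.39 for *Ddit4l*, an inhibitor of mTOR signaling, and 0.35 and 0.29 for *Ihh*. It was -0.34 on both days for *Cnmd*, -0.42 and -0.43 for the chaperone *Hsp90b1*, and -0.36 and -0.47 for the chaperone *Hspa5*. Cells of a day share 1 library, and *Loxl4* also had a rho of -0.51 and -0.41 with depth and *Cnmd* 0.41 and 0.43. *Ihh* had -0.27 and -0.36 with depth, and its limit in UMIs is a higher share in a shallow cell. All these values are therefore descriptions. Cells with 1 to 4 UMIs of *Mmp13* numbered 78 and 220, and those with none 104 and 113. *Spp1* was higher in the former, at 6458 and 14126 CPM against 3002 and 10207, while *Ihh* was close, at 682 and 874 against 699 and 817.

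**Figure D5:**
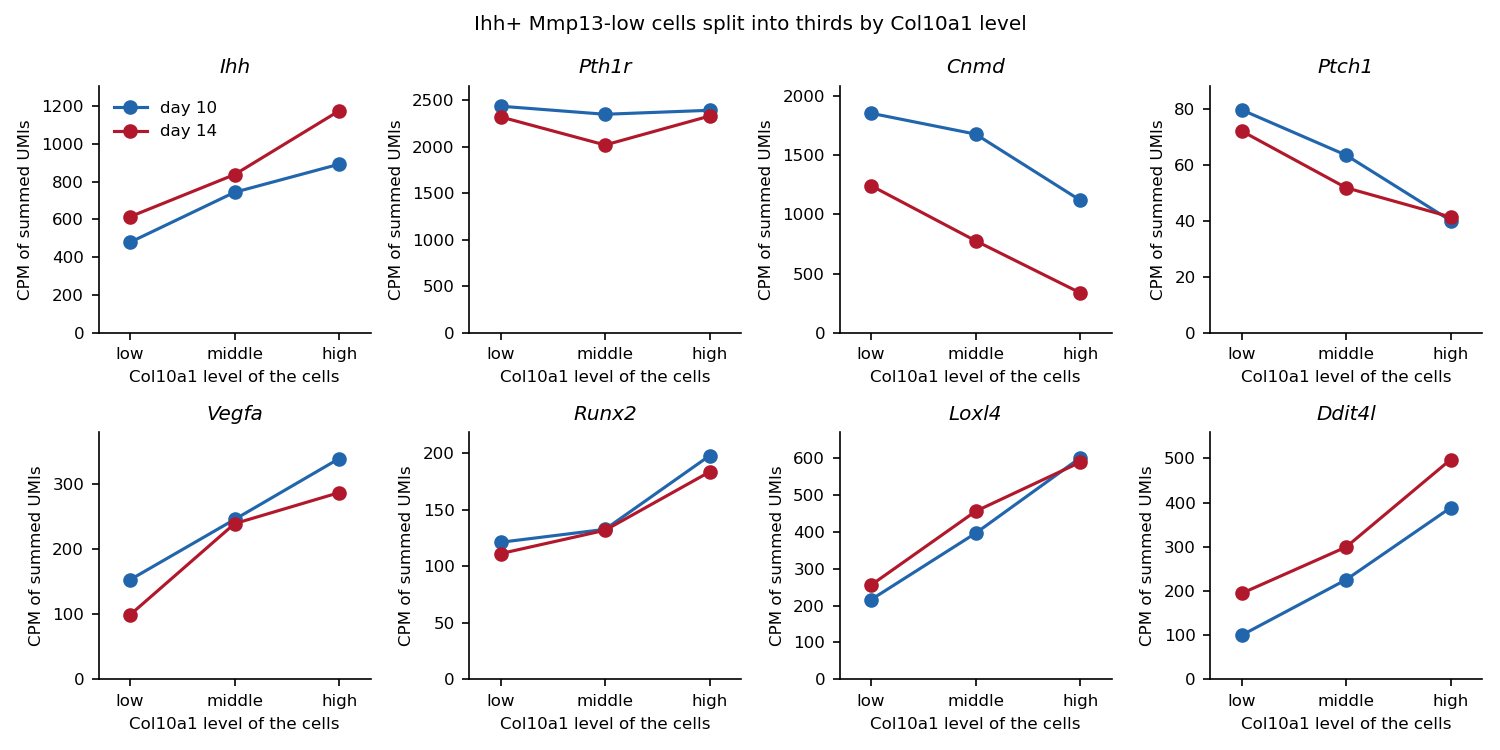
CPM of summed UMIs (vertical axes) of 8 genes in *Ihh*+ cells split into 3 parts by *Col10a1* level (horizontal axes), at day 10 (blue) and day 14 (red); each point is 1 part of 60 to 111 cells and has no replicate. *Ihh*, *Vegfa*, *Runx2*, *Loxl4*, and *Ddit4l* are higher toward the high part, *Cnmd* and *Ptch1* lower, and *Pth1r* is level. *Ihh* is a gene of the rule, and depth differs between the parts.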

How the data were processed

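Single cells of 3 callus libraries had been sequenced with the 10x Genomics 3′ chemistry. The authors deposited whole UMI counts per gene and cell, not normalized, which the submitters' notes ascribe to Cell Ranger 3.0 and mm10 the file headers to version 3.1.0, and the study's methods to a later release. Cells with 500 to 5000 genes, at most 10% mitochondrial and 5% hemoglobin UMIs, and no *Ptprc* UMI were kept. Counts were summed per group and library, scaled to CPM, and compared as ratios, with exact Poisson and binomial 95% intervals, among genes averaging at least 10 CPM. Python 3.11.15, numpy 2.4.6, scipy 1.17.1, pandas 2.3.3, scanpy 1.11.5, and matplotlib 3.10.9 were used, and the scripts were tested on simulated data. Of 32285 gene identifiers, 32235 were in GENCODE M21 (99.8%). Scrublet marked 3 of 8226 and 1 of 12067 cells as doublets, too few to have worked, so the limit of 5000 genes was the sole guard. Cells and gene lists were chosen with earlier results of these data known. Named genes were those of the lists and, per comparison, the 10 or 15 furthest apart in the same direction on both days (between the days, on the single ratio) with at least 50 CPM in the higher group. Alternatives changed the limits, scaling, depth, and filters.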

Additional observations from a re-analysis of the deposited data

Results flagged for a closer look

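The day 7 library entered no comparison, yet 4 of its 447 cells within the limits met the rule for *Ihh*+ cells (0.895%, exact interval 0.244 to 2.28). It has no control library to be set against. No explanation was tested.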

How the results depend on the processing

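Of 140 values recomputed under an alternative, 83 kept within the counting interval or within 1.5 times of the main count, 57 moved, and none reversed. The 83 include those with Scrublet doublets left out, which removed no cell at day 10 and 1 of 9680 at day 14. Those could not move and say nothing about stability. The share of *Ihh*+ cells, 2.76% at day 10 and 3.44% at day 14, became 2.26% and 2.9% with at least 5 UMIs of *Ihh*, 1.96% and 2.73% with *Col10a1* at 100 or more per 10000, 6.51% and 11.1% without the *Mmp13* limit, and, at day 14, 3.88% with at least 2 UMIs of *Ihh*. Each follows from the limit itself. With a mean of at least 50 CPM, which compares fewer genes, the counts higher and lower fell. Against *Cnmd*+ chondrocytes they became 156 and 137 at day 10 (6.52% and 5.73% of genes compared) and 116 and 150 at day 14 (5.06% and 6.54%). Against *Mmp13*-high cells they became 214 and 150 (8.70% and 6.10%) and then 86 and 73 (3.75% and 3.18%). Against *Ihh*-low cells they were 8 and 9 (0.341% and 0.384%) and then 3 and 35 (0.134% and 1.56%). Between the days they were 13 and 34 (0.566% and 1.48%). Without a filter on low values, the counts against *Cnmd*+ chondrocytes were 2200 and 1823 at day 10 and 2750 and 1927 at day 14. After thinning to 5000 UMIs per cell, which leaves fewer UMIs, counts against *Ihh*-low cells were 523 and 452 (7.80% and 6.74%) and then 218 and 449 (3.18% and 6.55%). Between the days they were 163 and 210 (2.44% and 3.14%). The 44 ratios of *Pth1r* and *Panx3* over *Cnmd*+ chondrocytes all stayed above 0 and 26 moved. For *Pth1r* the log2 ratio ranged from 1.11 to 1.90 at day 10 and from 0.86 to 1.91 at day 14, and for *Panx3* from 0.50 to 1.52 and from 0.18 to 1.43, the lowest being without the *Mmp13* limit and the highest against *Cnmd*+ chondrocytes with no *Ihh* UMI. No paired analysis was possible because each day had 1 library, and none could be left out for the same reason. In *Ihh*+ cells, a gene under 1 CPM rested on 6 UMIs or fewer.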
